A study of Homo sapiens with 6 samples.

Results

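The MYC, MAX and MXD network is a set of basic helix-loop-helix leucine zipper transcription factors, and its transcripts were followed in H69 cells treated with trichostatin A (TSA), an inhibitor of histone deacetylases. The 10 genes were taken by symbol, as members of the family, from a table of 31814 genes, and each matched a single row. They are MYC, MYCN, MYCL, MAX, MXD1, MXI1, MXD3, MXD4, MNT and MLX. All 10 passed the filter on low values (a level of 1 TPM reached in 3 libraries), which left 17596 genes for the test. TPM gives reads per length of transcript, scaled to the same total in every library, so levels can be compared between genes.

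The cells of the human line H69 were grown in RPMI with serum. The TSA group (3 libraries) received TSA at 1 µM for 24 h, and the vehicle group (3 libraries) received the solvent DMSO and was collected at the same time. A label of the treated samples has HSA where the protocol and the design have TSA. Whether the 3 libraries within a group stem from separate cultures is not in the labels. A p-value here therefore sets the difference between the groups only against the spread of these libraries, which may be technical.

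MAX is the shared partner of the network. MYC, MYCN and MYCL activate transcription when paired with MAX at the E-box CACGTG, while the MXD proteins and MNT pair with MAX at the same sites and recruit the SIN3 corepressor with its histone deacetylases. MLX heads a parallel branch, in which it pairs with MLXIP (MondoA), MLXIPL (ChREBP) and some of the MXD proteins. MYCN is the family member of the embryonic nervous system and of neuroblastoma, and any of the 3 MYC genes can be amplified in small cell lung cancer.

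The name H69 is in use for a small cell lung cancer line and for a bile duct line, and the labels do not say which was used. In vehicle libraries the neuroendocrine factor INSM1 stood at 614 ± 77.4 TPM (mean ± SD, n = 3). Of the bile duct markers, CFTR was at most 0.129 TPM in vehicle libraries, whereas EPCAM and KRT19 were at 600 ± 61.9 and 208 ± 48.2 TPM. Summed over 4 leukocyte markers the level was 4.00 to 4.95 TPM in TSA libraries and 4.08 to 4.92 TPM in vehicle libraries, most of it CD14. Whole reads recovered from the TPM ratios, a lower bound of depth, were 22533307 to 26148651 a library. Mitochondrial transcripts took 16.9%, 7.65% and 10.4% of the TPM in TSA libraries 1, 2 and 3, and 12.3%, 4.97% and 10.1% in vehicle libraries 1, 2 and 3.

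Upstream sequences from RefSeq (GRCh38.p14) are shown because they place the network's own recognition letters at its genes. The promoter table matched 9 of the 10 genes with 12 annotated starts, and MYC was not matched. The E-box CACGTG, which reads the same on both strands, lay within 250 bases upstream of a start of MXD4, MNT and MLX, and in 6.34% of all 35116 promoter windows of that length. The stretches of 30 bases around it follow, 5′ to 3′, with the E-box in capitals.
MXD4, minus strand, chr4:2262330-2262359: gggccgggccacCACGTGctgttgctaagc
MNT, minus strand, chr17:2401236-2401265: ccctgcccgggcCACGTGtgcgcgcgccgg
MLX, plus strand, chr17:42567038-42567067: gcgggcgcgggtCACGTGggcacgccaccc
The E-box of MLX begins 50 bases before the annotated start, that of MNT 193 bases and that of MXD4 238 bases. The 250 bases upstream of MYCN, on the plus strand at chr2:15940300-15940549, held no CACGTG but a pair of overlapping E2F-type matches, shown in capitals. E2F-type matches were TTTGGCGC, TTTCGCGC, TTTCCCGC or TTTGCCGC on either strand, and 2.79% of all windows held a match. None of the other 8 matched genes had a match in its windows.
MYCN: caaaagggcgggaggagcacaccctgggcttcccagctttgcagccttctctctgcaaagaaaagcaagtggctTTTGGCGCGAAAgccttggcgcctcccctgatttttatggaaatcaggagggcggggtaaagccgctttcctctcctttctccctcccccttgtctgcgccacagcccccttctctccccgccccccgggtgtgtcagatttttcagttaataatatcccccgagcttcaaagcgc
These matches describe the letters only. Binding was not measured.

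TSA was compared with vehicle for each of the 10 genes. MYCN, the dominant MYC gene in vehicle cells, fell, while MYC, MYCL, MAX, MXD1, MXI1 and MXD4 rose. With limma on log2(TPM + 1) and a Benjamini-Hochberg adjusted p under 0.05 over all tested genes, 6 of the 10 genes were higher in TSA and 2 lower, and 2 did not pass. Over all tested genes 62.2% were called, 28.0% higher and 34.2% lower. The change was at least 2-fold on that scale in all 6 genes called higher and in 1 of the 2 called lower. Calls of that size were made for 35.2% of all tested genes, 15.5% higher and 19.7% lower. MXD4 was near this bound with a log2 fold change of 1.02, which was 0.98 without TSA replicate 1 and 0.98 without TSA replicate 3. TSA and vehicle values were fully apart in 8 of the 10 genes, against 67.0% of all tested genes. The median log2 fold change was 1.06 over the 10 genes and −0.10 over all tested genes. MYCL was under 1 TPM in all 3 vehicle libraries and passed the filter only through the TSA libraries, so its call was fixed by the filter and adds nothing to these counts.

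**Figure D1:**
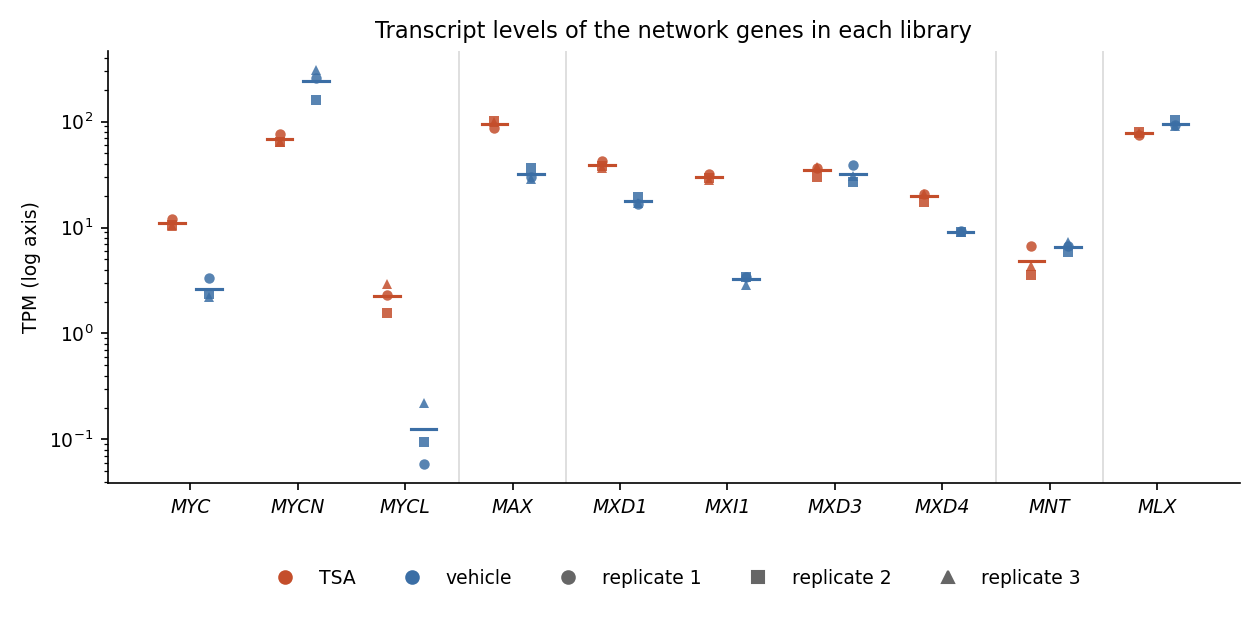
Transcript level (TPM, log axis) of the 10 network genes in each library. TSA libraries stand at the left of each gene in red and vehicle libraries at the right in blue, marker shapes give the replicate and bars the group mean. MYCN sits at 63.8 to 75.9 TPM in TSA, below its 161 to 304 TPM in vehicle, while MAX and MXI1 sit above their vehicle values.

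Among the MYC genes, MYCN (ENSG00000134323.10) had 75.9, 63.8 and 64.0 TPM in TSA libraries 1, 2 and 3, against 258, 161 and 304 TPM in vehicle libraries 1, 2 and 3. Every TSA library lay below every vehicle library, and vehicle library 2 was the lowest of its group. The fall was 1.77 on the log2(TPM + 1) scale, with a standard error of 0.23 and an adjusted p of 0.00066 (limma). Leaving out libraries gave a log2 fold change of −2.03 without vehicle replicate 2 and −1.58 without vehicle replicate 3. Vehicle library 2 also had the smallest mitochondrial share of the 6, and the part of this share in the MYCN values was not tested. With mitochondrial genes removed, a setting added after the data were seen, the log2 fold change was −1.73. The recovered reads behind these values were 1179 to 1435 in TSA and 2629 to 5600 in vehicle.

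MYC (ENSG00000136997.10), the family member most widely expressed in proliferating tissue, moved the other way. It had 11.997, 10.7 and 10.3 TPM in TSA libraries, against 3.35, 2.34 and 2.22 TPM in vehicle libraries. The groups did not overlap, and the log2 fold change was 1.73 with a standard error of 0.17 (adjusted p 0.00017, limma). The gain in MYC was small beside the loss of MYCN: MYC gave 13.6 ± 0.397% of the summed TPM of the 3 MYC genes in TSA and 1.15 ± 0.373% in vehicle (SD, n = 3 each).

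MYCL (ENSG00000116990.9), first found amplified in small cell lung cancer, was nearly silent in vehicle cells. It had 2.31, 1.56 and 2.93 TPM in TSA libraries, against 0.0591, 0.0943 and 0.223 TPM in vehicle libraries. These vehicle values rest on 2, 3 and 8 recovered reads, against 85, 59 and 105 reads in TSA libraries 1, 2 and 3. Summed over each group and divided by the recovered totals, the read rate was 19.3-fold higher in TSA, with an exact 95% interval of 11.1 to 36.8 that covers counting error only. The log2 fold change on the log2(TPM + 1) scale was 1.52 with a standard error of 0.20, a scale that understates the change of so low a gene.

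MAX (ENSG00000125952.14), the shared partner of the MYC and MXD proteins, rose in all TSA libraries. It had 87.9, 100.8 and 98.5 TPM in TSA libraries, against 29.98, 36.8 and 28.7 TPM in vehicle libraries. The log2 fold change was 1.56 with a standard error of 0.12 (adjusted p 6.6e-05, limma). FNTB and the read-through gene CHURC1-FNTB, which GENCODE 29 places across MAX on the opposite strand, went the other way, at 24.5 to 26.1 and 51.2 to 56.3 TPM in TSA and at 44.6 to 52.2 and 81.5 to 97.9 TPM in vehicle. The sources used here do not say whether strand was used in counting, so the reads of such overlapping genes may be mixed.

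Of the MXD family, which antagonises MYC at MAX-bound sites, 3 of 4 genes rose. MXI1 (ENSG00000119950.16), also called MXD2, had the largest absolute log2 fold change of the 10 genes on the log2(TPM + 1) scale, while MYCL exceeded it with a pseudocount of 0.1 (3.42 against 3.16) and in voom. It had 32.2, 29.2 and 28.1 TPM in TSA libraries, against 3.44, 3.42 and 2.88 TPM in vehicle libraries. The log2 fold change was 2.86 with a standard error of 0.13 (adjusted p 1.0e-05, limma), and 96.7% of all tested genes had a smaller absolute change.

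MXD1 (ENSG00000059728.6), the founding member, induced in many tissues as cells differentiate, had 42.4, 38.2 and 36.5 TPM in TSA libraries, against 16.6, 19.4 and 16.9 TPM in vehicle libraries. Its groups were well apart, with a log2 fold change of 1.10 and a standard error of 0.11 (adjusted p 0.00018, limma). MXD4 (ENSG00000123933.10), another member linked to differentiation, had 20.8, 17.3 and 20.8 TPM in TSA libraries, against 9.33, 9.0 and 9.05 TPM in vehicle libraries. The vehicle values of MXD4 were almost alike, and its log2 fold change was 1.02 with a standard error of 0.12 (adjusted p 0.00036, limma).

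MXD3 (ENSG00000213347.6) is the family member expressed in proliferating progenitors, in S phase in particular. It had 36.6, 30.1 and 37.4 TPM in TSA libraries, against 39.1, 26.8 and 30.4 TPM in vehicle libraries. The groups overlapped. The log2 fold change was 0.12, below its standard error of 0.16, and did not pass the test (adjusted p 0.55, limma). RAB24, annotated across MXD3 on the same strand, had 64.2 to 81.9 TPM in TSA and 38.4 to 46.3 TPM in vehicle. The sources used here do not say how reads shared by overlapping genes were counted.

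MNT (ENSG00000070444.10), a broadly expressed partner of MAX and MLX that restrains MYC, had 6.70, 3.53 and 4.32 TPM in TSA libraries, against 6.69, 5.84 and 7.31 TPM in vehicle libraries. TSA library 1 lay among the vehicle values and the other two TSA libraries lay below them. The log2 fold change was −0.41 with a standard error of 0.22 (adjusted p 0.15, limma), and it was −0.63 without TSA replicate 1 (adjusted p 0.017). MLX (ENSG00000108788.7) had 74.6, 80.3 and 77.2 TPM in TSA libraries, against 92.8, 103.4 and 90.2 TPM in vehicle libraries. The groups did not overlap, with a log2 fold change of −0.30, a standard error of 0.088 and an adjusted p of 0.023 (limma). A median-of-ratios scaling, which moved the median of all tested genes by 0.10, ended the call of MLX (log2 fold change −0.18, adjusted p 0.29), and over its 19 alternatives the adjusted p ran from 0.015 to 0.29. It was 0.074 without TSA replicate 3, 0.053 without vehicle replicate 1 and 0.065 without vehicle replicate 2.

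**Figure D2:**
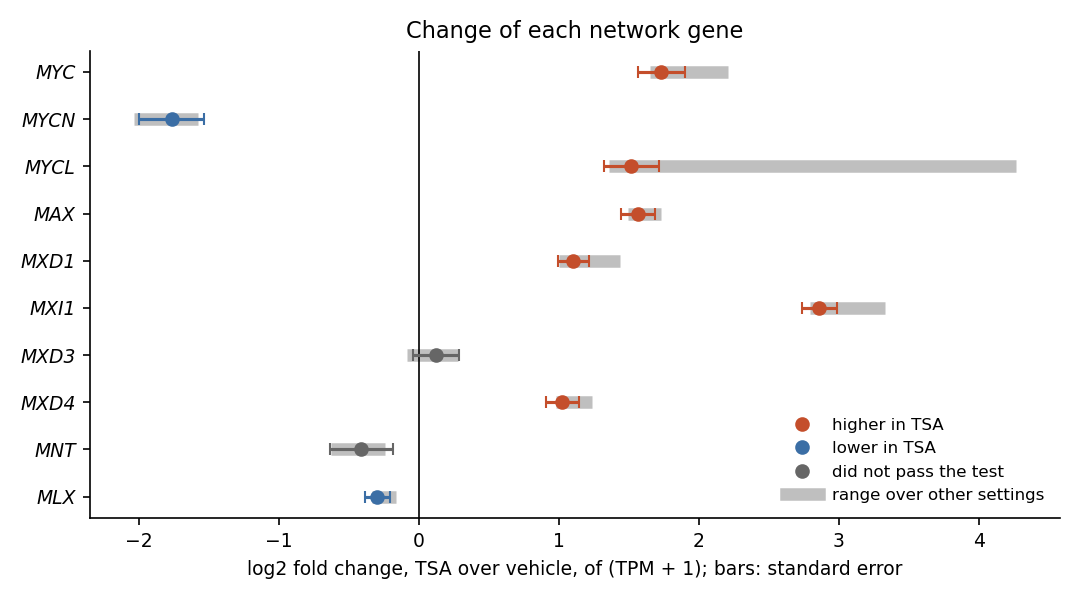
Log2 fold change of each network gene, TSA over vehicle, on the log2(TPM + 1) scale, with its standard error. Grey bands give the range over the other settings tried. MXI1 lies farthest to the right at 2.86 and MYCN farthest to the left at −1.77, and the band of MYCL is wide because a smaller pseudocount raises the fold change of a gene near 0.

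The authors' deposited table gave an FDR under 0.05 to 7 of the 10 genes, against 41.3% of all its 31814 genes. That share also counts genes that did not pass the filter on low values, which all 10 members passed. The 2 shares therefore rest on unlike sets of genes. In the authors' deposited table the log2 fold change was −1.76 for MYCN, 2.13 for MYC, 4.18 for MYCL, 1.66 for MAX and 3.27 for MXI1. It was 1.21 for MXD1 and 1.17 for MXD4 in the authors' deposited table, while MXD3 (FDR 0.45), MNT (FDR 0.18) and MLX (FDR 0.34) did not pass there.

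The order of the levels changed with these shifts. In TSA cells MAX stood at the top with 95.7 ± 6.90 TPM, followed by MLX with 77.4 ± 2.89 TPM and MYCN with 67.9 ± 6.95 TPM (mean ± SD, n = 3). The ranges of MLX and MYCN overlapped there, as did those of MXD1 and MXD3 and those of MXD3 and MXI1. In vehicle cells MYCN led with 241 ± 73.1 TPM, followed by MLX with 95.4 ± 6.98 TPM, MXD3 with 32.1 ± 6.35 TPM and MAX with 31.8 ± 4.39 TPM. The ranges of MXD3 and MAX overlapped in vehicle, as did those of MXI1 and MYC near the bottom. MYCL had the lowest level in both groups.

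Within each library MYCN transcripts were set against those of MAX. The ratio of MYCN to MAX TPM was 0.864, 0.633 and 0.649 in TSA libraries 1, 2 and 3, against 8.61, 4.37 and 10.6 in vehicle libraries 1, 2 and 3. MYCN was thus below its partner in each TSA library and above it in each vehicle library. The two-sided exact permutation test gave p = 0.10, the smallest that 3 libraries against 3 allow.

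Summed over MYC, MYCN and MYCL, the level was 76.0 to 90.2 TPM in TSA and 163 to 306 TPM in vehicle. Summed over the 4 MXD genes, it was 115 to 132 TPM in TSA and 58.6 to 68.5 TPM in vehicle. The MXD sum was therefore 1.46 to 1.59 times the MYC family sum in TSA libraries and 0.193 to 0.359 times that sum in vehicle libraries. These sums describe RNA, and protein was not measured.

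The makeup of the MXD family changed as well. MXI1 gave 24.2 ± 1.28% of the MXD sum in TSA and 5.24 ± 0.519% in vehicle, and MXD3 gave 28.1 ± 2.14% in TSA and 51.4 ± 5.72% in vehicle (SD, n = 3 each). The share of MXD1 overlapped between the groups, at 29.7% to 33.2% in TSA and 24.2% to 33.1% in vehicle. Set against MAX, MXD1 was at 0.371 to 0.483 in TSA and 0.527 to 0.589 in vehicle, and MXI1 at 0.285 to 0.367 in TSA and 0.0929 to 0.115 in vehicle (p = 0.10 in each case, two-sided exact permutation test, the smallest possible). MLX, which outnumbered MAX in every vehicle library with a ratio of 2.81 to 3.15, was at 0.783 to 0.849 of MAX in TSA.

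**Figure D3:**
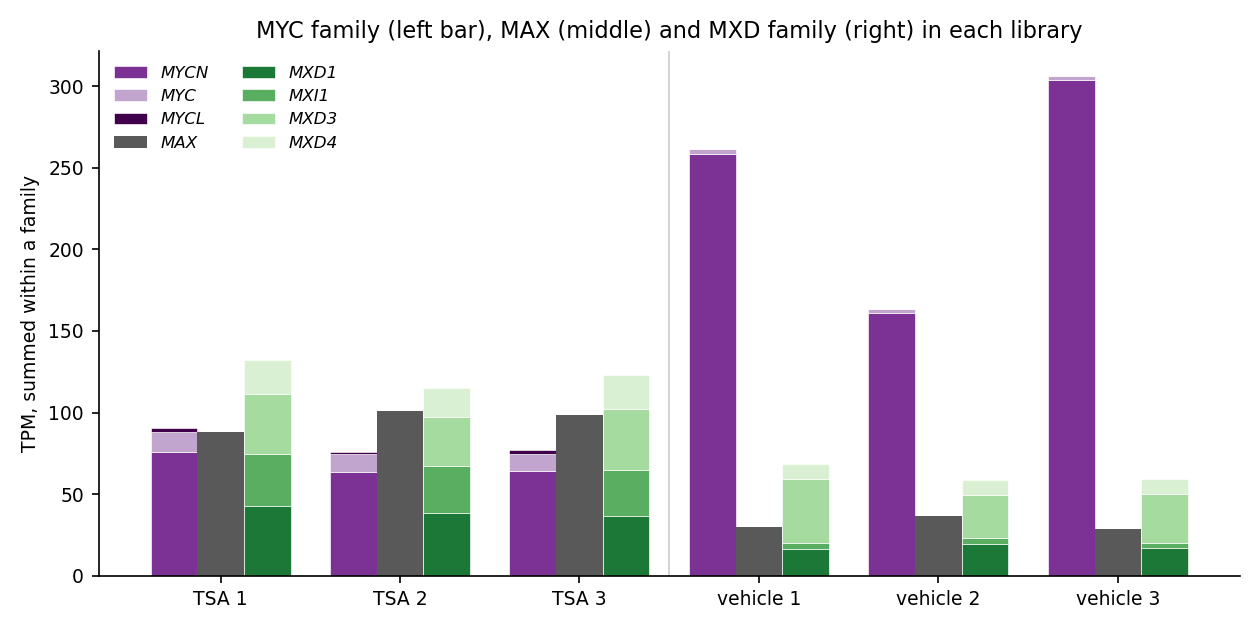
Summed TPM of the MYC family (left bar), MAX (middle bar) and the MXD family (right bar) in each of the 3 TSA and 3 vehicle libraries. In vehicle the MYC family bar, almost all MYCN, is the tallest at 163 to 306 TPM, while in TSA the MXD bar is the tallest at 115 to 132 TPM.

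Genes beside the MYC genes were read for the same comparison. MYCNOS, annotated across the start of MYCN on the opposite strand, fell with it, at 0.970, 1.61 and 1.70 TPM in TSA libraries and 9.93, 11.6 and 17.97 TPM in vehicle libraries (log2 fold change −2.52, standard error 0.25, adjusted p 0.00019, limma). Where it overlaps MYCN, reads of the pair may be mixed. DDX1, the neighbour often amplified together with MYCN in tumours, was at 73.7 ± 5.32 TPM in TSA and 129 ± 7.92 TPM in vehicle and fell by 0.80 on the log2 scale (adjusted p 0.00038, limma). NBAS, farther along the same arm, was at 10.6 ± 3.30 TPM in TSA and 11.0 ± 1.73 TPM in vehicle (adjusted p 0.80, limma). With length and GC trends removed NBAS was called higher (log2 fold change 0.30, adjusted p 0.045). FAM49A was at 0.848 ± 0.174 TPM in TSA and listed at 0 in all vehicle libraries. Copy number was not measured.

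PVT1, the long non-coding neighbour of MYC, did not pass the test, at 0.925 ± 0.204 TPM in TSA and 1.42 ± 0.473 TPM in vehicle (log2 fold change −0.32, adjusted p 0.19, limma). POU5F1B was at most 0.0527 TPM in any library. Of the neighbours of MYCL, CAP1 was at 398 ± 26.7 TPM in TSA and 199 ± 20.6 TPM in vehicle and rose by 1.00 on the log2 scale, and MFSD2A rose by 0.74. RLF, which is fused to MYCL in some small cell lung cancers, rose by 0.55 (adjusted p 0.029, limma), a call that ended in 5 of its 19 alternatives, with an adjusted p of 0.055 without TSA replicate 1, 0.054 without TSA replicate 2 and 0.077 without vehicle replicate 2. TRIT1 (log2 fold change −0.22) and PPT1 (−0.31) did not pass the test, and TRIT1 had an adjusted p of 0.048 without TSA replicate 1.

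By Pearson correlation of log2(TPM + 1) over the 6 libraries, among 10987 or 10988 genes with a mean of at least 5 TPM, the profiles most like that of MYCN were those of VANGL2, ZNF720 and ARHGAP19. Those most like MYC were GRB14, SHC1 and TMEM41B, those most like MAX were RAB5C, PIM1 and STRA13, and those most like MXI1 were KIAA1161, PI4K2A and IL6ST. For MYCL they were ZFP36, MED25 and RNA5-8SP2, whose value is uncertain because it is a copy of ribosomal RNA. All these coefficients were 0.998 to 1.00. The libraries form 2 treatment groups, so such a value mostly describes the difference between them, and 1052 to 1818 genes exceeded 0.95 with each of the 5 network genes.

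Of the remaining partners, MLXIPL, the glucose-responsive partner of MLX, rose. It had 25.0, 14.9 and 21.5 TPM in TSA libraries, against 3.89, 1.85 and 2.76 TPM in vehicle libraries (log2 fold change 2.49, standard error 0.27, adjusted p 0.00025, limma). MLXIP, the other MLX partner, overlapped between the groups at 18.7 ± 4.58 TPM in TSA and 20.05 ± 4.53 TPM in vehicle (adjusted p 0.74, limma). MGA, a very large protein that pairs with MAX, had 32.0, 8.93 and 8.34 TPM in TSA libraries, against 23.7, 8.44 and 17.3 TPM in vehicle libraries. Both replicate 1 libraries were the highest of their group for MGA, and its adjusted p was 0.82 (limma).

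Of the 5 targets of MLX and MondoA at 1 TPM or more in all vehicle libraries 2 rose and 1 fell. Of all genes tested at that level 23.6% were called higher and 39.3% lower. PKLR did not pass the filter. TXNIP, which restrains glucose uptake and thioredoxin, was at 1359 ± 115 TPM in TSA and 323 ± 36.0 TPM in vehicle (log2 fold change 2.07). The glycolytic enzyme gene HK2 rose by 1.69, whereas ARRDC3 fell by 0.91. ARRDC4 was at 6.76 ± 1.24 TPM in TSA and 0.372 ± 0.293 TPM in vehicle, and it passed the filter only through the TSA libraries, so its call was fixed.

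Cofactors through which the network acts were read next. Over all tested genes 28.0% were called higher and 34.2% lower. Every tested gene of the cofactor lists, and of the ribosome and metabolism target lists below, was at 1 TPM or more in all vehicle libraries. The like shares are therefore those of all genes tested at that level, 23.6% higher and 39.3% lower. Of 18 MYC coactivator genes 3 rose and 7 fell, with a median of −0.26. RUVBL2, an ATPase of the TIP60 complex, was at 206 ± 18.8 TPM in TSA and 78.4 ± 8.98 TPM in vehicle (log2 fold change 1.39), and EPC1 of the same complex was at 1.42 ± 0.136 TPM in TSA and 15.0 ± 1.61 TPM in vehicle (−2.72). TRRAP, the scaffold that MYC binds, had 25.8, 7.67 and 7.52 TPM in TSA libraries and 54.2, 19.2 and 40.9 TPM in vehicle libraries. Its groups overlapped and its adjusted p of 0.048 (limma) rose above 0.05 in 7 of 19 alternatives, as did that of the nucleosome remodelling gene BPTF in 6 of 19, with 27.96, 9.27 and 10.1 TPM in TSA libraries and 54.3, 23.8 and 54.1 TPM in vehicle libraries. Without TSA replicate 2 or 3, or vehicle replicate 1 or 3, the adjusted p ran from 0.13 to 0.14 for TRRAP and from 0.096 to 0.11 for BPTF.

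Of 16 genes of the SIN3 corepressor complex, which MXD proteins recruit, 6 rose and 5 fell, with a median of 0.23. The scaffold genes themselves did not pass the test, SIN3A at 36.9 ± 3.57 TPM in TSA and 33.8 ± 2.69 TPM in vehicle and SIN3B at 22.04 ± 6.56 TPM in TSA and 17.4 ± 3.18 TPM in vehicle. ING2 rose by 0.81 and SAP130 by 0.77, while the histone-binding gene RBBP4 was at 65.7 ± 7.12 TPM in TSA and 142 ± 6.59 TPM in vehicle (log2 fold change −1.10). The deacetylase gene HDAC2 fell by 0.81, whereas the deacetylase gene HDAC1 rose by 0.77 (adjusted p 0.00052, limma). The number that fell was 3 under a median-of-ratios scaling and 1 with length and GC trends removed from each library, where HDAC2 did not pass (log2 fold change −0.24, adjusted p 0.43, limma).

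Of 16 genes that act on MYC protein stability 3 rose and 8 fell, with a median of −0.78. AURKA, a mitotic kinase known to shield MYCN protein from degradation, had 12.8, 16.99 and 16.6 TPM in TSA libraries, against 97.8, 104 and 101 TPM in vehicle libraries (log2 fold change −2.64, standard error 0.12, adjusted p 1.2e-05, limma). The mitotic kinase gene PLK1 fell by 2.72 and KIAA1524, which encodes the phosphatase inhibitor CIP2A, fell by 2.04. STUB1, a ubiquitin ligase, was at 364 ± 50.7 TPM in TSA and 82.1 ± 11.5 TPM in vehicle and rose by 2.13. FBXW7, the ligase that reads phosphorylated MYC, did not pass at 14.0 ± 3.46 TPM in TSA and 11.1 ± 2.11 TPM in vehicle. With length and GC trends removed 5 genes of the list rose.

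Of 13 genes of the complex of MGA with the Polycomb protein PCGF6, which holds germline genes silent, 2 rose and 8 fell, with a median of −0.78. PCGF6 was at 13.5 ± 1.51 TPM in TSA and 30.7 ± 4.60 TPM in vehicle (log2 fold change −1.12), and the log2 fold change was −1.26 for the chromodomain gene CBX3, −1.23 for YAF2 and −1.14 for the ubiquitin ligase gene RNF2. The number that rose was 1 when any library other than vehicle replicate 2 was left out.

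Of 21 known MYC targets in ribosome biogenesis 7 rose and 7 fell, with a median of −0.15. EBNA1BP2, FBL, which encodes the nucleolar methyltransferase fibrillarin, and BOP1 rose by 1.34, 0.86 and 0.83. UBTF, a factor of ribosomal RNA transcription, was at 15.6 ± 1.85 TPM in TSA and 164 ± 1.63 TPM in vehicle and fell by 3.32. Of 26 targets in metabolism 7 rose and 8 fell, with a median of −0.17. ODC1, the first enzyme of polyamine synthesis and a classical MYC target, was at 2155 ± 434 TPM in TSA and 806 ± 92.5 TPM in vehicle, a rise of 1.40. The glutamine transporter gene SLC1A5 rose by 2.76 and IMPDH2, an enzyme of guanine nucleotide synthesis, by 1.04, while CTPS1, an enzyme of cytidine nucleotide synthesis, fell by 1.61.

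Of the 14 targets in the cell cycle at 1 TPM or more in all vehicle libraries 1 rose and 12 fell, while of all genes tested at that level 23.6% were called higher and 39.3% lower. CUL1, a ubiquitin ligase scaffold, was at 13.2 ± 0.719 TPM in TSA and 142 ± 11.7 TPM in vehicle (log2 fold change −3.34), E2F2 fell by 2.86 and CCNA2, which encodes cyclin A2, fell by 2.70. CCND2, which encodes cyclin D2, was at 2.54 to 2.77 TPM in TSA and listed at 0 in the 3 vehicle libraries, so it passed the filter only through TSA and its call was fixed.

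Of the 9 genes that MYC is known to repress at 1 TPM or more in all vehicle libraries 7 rose and 0 fell by limma, against the same 23.6% and 39.3%, and PDGFRB and THBS1 did not pass the filter. At an unadjusted p under 0.05 the number that fell was also 0, as it was in limma's voom test of recovered reads. CLU, which encodes the chaperone clusterin, was at 153 ± 24.9 TPM in TSA and 6.81 ± 2.60 TPM in vehicle and rose by 4.34. NDRG4 rose by 3.19 and the kinase inhibitor gene CDKN1C by 1.602. NDRG2 was at 3.79 ± 0.180 TPM in TSA and 0.243 ± 0.0491 TPM in vehicle and passed the filter only through TSA, so its call was fixed. These 10 lists of cofactors and targets were chosen with earlier results of these data known, and their counts are descriptions.

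**Figure D4:**
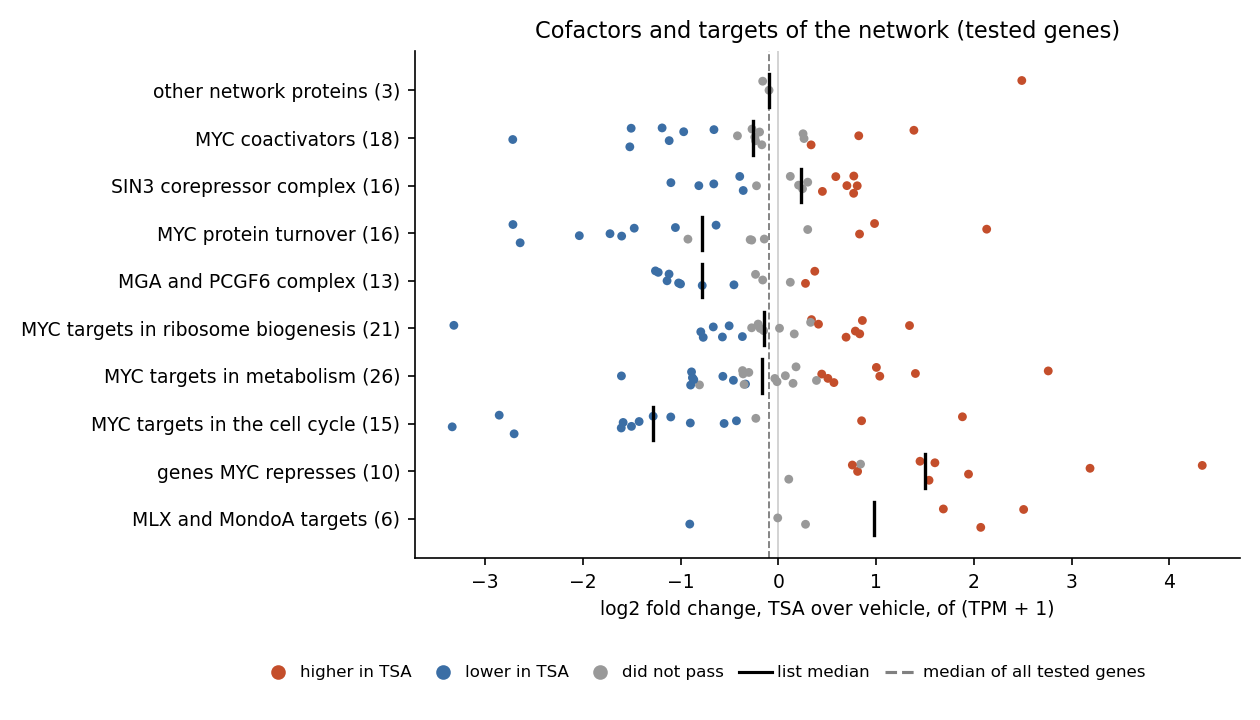
Log2 fold change, TSA over vehicle, of every tested gene in 10 lists of network partners, cofactors and targets, with the number tested in brackets. Black bars mark list medians and the dashed line the median of all tested genes at −0.10. ARRDC4, CCND2 and NDRG2, whose calls were fixed by the filter, are included. Cell cycle targets lie mostly to the left with a median of −1.28 and genes that MYC represses mostly to the right, while the ribosome and metabolism lists straddle 0.

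The neuroendocrine markers changed beside the network. Of 11 tested markers 3 rose and 7 fell, with a median of −0.84. INSM1, a transcription factor of neuroendocrine cells, had 19.1, 26.7 and 28.3 TPM in TSA libraries, against 538, 693 and 610.1 TPM in vehicle libraries (log2 fold change −4.59, standard error 0.17, adjusted p 7.2e-06, limma). The log2 fold change was −3.86 for the neuronal RNA-binding gene ELAVL4 and −1.67 for the peptide gene GRP. Of 8 tested bile duct marker entries 1 rose (0 without TSA replicate 3) and 5 fell, among them MUC1 (log2 fold change −2.05), KRT7 (−1.93), EPCAM (−1.49) and KRT19 (−1.06). Summed over 6 fibroblast and endothelial markers the level was 5.29 to 7.27 TPM in TSA and 0.740 to 1.33 TPM in vehicle, of which COL1A1 made 4.51 to 6.42 TPM in TSA and 0.211 to 0.906 TPM in vehicle, while DCN and COL3A1 were at most 0.0197 TPM. In these bulk samples fewer cells of a type and less RNA per cell cannot be told apart, and the part of any other cell type in the network's values was not tested.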

How the data were processed

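Polyadenylated RNA of 6 H69 libraries, 3 with TSA and 3 with vehicle, was sequenced with a stranded kit, per the labels' protocols. Per the submitters' processing notes, STAR 2.5.3a, featureCounts, edgeR, Picard 1.127 and FastQC 0.11.2 and hg19 were named, without their roles. The table's name gives GENCODE 19. The authors deposited TPM values, each column having an equal sum. The authors' deposited table of their comparison holds a log2 fold change, a mean log2 CPM, a likelihood ratio score, and a p-value and FDR for each gene. Its sign matched the TPM difference for 98.0% of tested genes, positive being higher in TSA.

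Those 17596 genes that reached 1 TPM in at least 3 libraries were tested on log2(TPM + 1) with limma 3.58.1 in R 4.3.3 (eBayes with trend, two-sided), and p-values were adjusted by Benjamini-Hochberg over these genes. Between libraries, the TPM ratios of a gene were whole-number ratios for 100% of 27644 genes (relative tolerance 1e-09). The recovered reads are the smallest whole numbers that fit and were tested with limma's voom. The method was checked on simulated libraries in which far fewer genes changed than were called here. That check does not speak to changes as widespread as these. The members and the 15 gene lists were chosen with earlier results of these data known. Of 194 list entries 189 matched, and MYCNUT, MYCLP1, NEUROD1, MS4A1 and PECAM1 were not analysed here. Named were all members, MGA, MLXIP, MLXIPL, the listed neighbours, and up to 4 called genes a list by absolute fold change, or the 2 highest where fewer than 2 passed. The genes chosen after their values were seen are SIN3A, SIN3B, HDAC1, FBXW7, FNTB, CHURC1-FNTB, RAB24, CFTR, DCN and COL3A1. GENCODE 29 (another build) gave overlaps, and length and GC content for 95.4% of tested genes. Figures used matplotlib 3.10.9.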

Additional observations from a re-analysis of the deposited data

How the results depend on the processing

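The calls of MYC, MYCN, MAX, MXD1, MXI1 and MXD4 held under all 19 alternatives, with adjusted p-values of 3.0e-06 to 0.0045 over these 6 genes. MLX was the weak call of the network. The number of network genes called lower was 1 under a median-of-ratios scaling, a quantile scaling and the voom test of recovered reads, and ran from 1 to 3 when each library was left out in turn. The number called higher was 5 with a filter of 5 TPM, which left MYCL untested, and 6 under every other alternative. Over all tested genes 3788 to 5826 were higher and 4956 to 6848 lower. Without both replicate 1 libraries MNT passed (adjusted p 0.037) and MLX did not (adjusted p 0.069), and with length and GC trends removed MNT passed (adjusted p 0.031). A median-of-ratios scaling put 50.1% of the calls higher, against 45.0% with TPM as deposited.

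Genes that did not pass turned sign under some settings, and the cause was not tested. With length and GC trends removed the log2 fold change was −0.082 for MXD3, 0.45 for MGA, 0.11 for MLXIP, 0.30 for NBAS, which was then called higher (adjusted p 0.045), 0.13 for TRIT1 and −0.091 for CD14. Under a quantile scaling it was 0.040 for MGA, 0.10 for MLXIP and 0.11 for NBAS, and under a median-of-ratios scaling 0.019 for MLXIP and 0.038 for NBAS. In the voom test it was 0.033 for MLXIP and 0.054 for NBAS. When each library was left out in turn it ran from −0.75 to 0.16 for MGA, from −0.28 to 0.062 for MLXIP, from −0.29 to 0.086 for NBAS and from −0.029 to 0.13 for CD14.

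Replicate numbers are shared by the groups. Deviations from the group means correlated at 0.63, 0.59 and −0.073 for numbers 1, 2 and 3, where 0.63 and 0.59 were the highest of any TSA and vehicle library. TSA library 3 correlated best with vehicle library 2 (0.38). Deviations within a group cancel out, so these correlations depend on each other and cannot decide whether the numbers pair the libraries. The main fit did not use the numbers. With the number as a block 5637 genes were higher and 6848 lower, and 6 network genes were higher and 2 lower. PPT1 was called lower with the block (adjusted p 0.012). TRRAP had a standard error of 0.25 and an adjusted p of 0.0022 with the block, and BPTF 0.26 and 0.0027 (limma). Depth limits MYCL in vehicle, which rests on 2 to 8 reads a library.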
